A study of Mus musculus with 12 samples.

Results

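Genes of oxidative phosphorylation were followed in the RNA of neural stem/progenitor cells (NSPCs) with and without Ythdf2, a reader protein that binds m6A-marked mRNA and directs it to decay. The genes were taken by symbol alone: every gene named Nduf followed by a, b, c, s or v, Sdha to Sdhd, every Uqcr gene, Cox4 to Cox8 and every Atp5 gene. This gave 93 of 24525 genes. Of these, 83 encode subunits: 36 of complex I, 4 of complex II, 8 of complex III, 20 of complex IV and 15 of complex V. Ndufa4 and Ndufa4l2 carry a complex I name but were counted with complex IV, where the Ndufa4 protein is now placed. Cox7a2l, a factor that joins complexes into supercomplexes, was also counted there. The other 10 match by name but are not subunits, namely Ndufaf1 to Ndufaf8, which assemble complex I, and Atp5s and Atp5sl, which are accessory factors. They are described apart.

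The cells were C57BL/6 NSPCs grown as floating neurospheres from the brains of E14.5 embryos with EGF and bFGF, at passage P1 and without treatment. One genotype was wild type (libraries WT1, WT2 and WT3) and the other Ythdf2 -/- (KO1, KO2 and KO3), where a ubiquitous Cre had removed a floxed stretch holding the 5′ UTR and exon 1. The 6 libraries were RNA-seq of fragmented mRNA, and the 6 matching m6A-IP samples were not analysed here. The study describes the libraries as biological replicates, without saying whether each came from its own embryo, so the p-values measure the spread between these libraries.

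Oxidative phosphorylation runs in the inner membrane of the mitochondrion. Complexes I and II pass electrons from NADH and succinate to ubiquinone, complex III hands them to cytochrome c, and complex IV gives them to oxygen. Complexes I, III and IV pump protons as they do so, and complex V, the ATP synthase, lets the protons flow back to make ATP. Most subunits are encoded in the nucleus and some by mitochondrial DNA; the latter were not analysed here. Neural stem cells are known to lean on glycolysis and to raise oxidative phosphorylation as they become neurons.

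The libraries differed little in depth, from 11029827 reads assigned to genes in WT3 to 13185778 in WT2, and the genes followed here took 1.79%, 1.84% and 0.902% of those reads in WT1, WT2 and WT3 and 1.65%, 1.47% and 1.79% in KO1, KO2 and KO3. The targeted gene Ythdf2 followed its labels, with 840, 961 and 999 reads in the wild-type libraries against 137, 198 and 138 in the Ythdf2 -/- libraries (log2 fold change -2.66, and -2.54 without WT3). WT3 stood apart. Markers of several cell types moved in it, in both directions within a list. Levels are given as reads per 1000000 (CPM). Of 10 neural stem and progenitor markers, 7 were highest in WT3 (Sox9 346 CPM against 88.1 to 122) and 3 lowest (Nes 264 against 725 to 1212), so that the list's sum was low in WT3, 3815 against 4973 to 6663, while its median departure from the other libraries was log2 0.87. Of 6 astrocyte markers, 2 were highest there (Gfap 3046 against 5.55 to 625), which carried a sum of 5015 against 955 to 1683, but the list's median departure was -0.02. Of 9 oligodendrocyte lineage markers, 5 were highest there (Mbp 573 against 1.21 to 8.85) while Olig1, Olig2 and Cspg4 were lowest, with a sum of 3474 against 1574 to 1903. Of 9 neuron markers, 5 were highest there (Dcx 315 against 8.36 to 13.1) and Gap43 was lowest, with a sum of 1991 against 1245 to 1483. All 10 stem and progenitor markers were detected in every group, with Sox2 between 316 and 551 CPM. Of 7 microglia markers 5 were under 1 CPM in every library, of 5 endothelial markers 4 and of 6 mesenchymal markers 5, with Ptprc and Cldn5 at 0 reads, though the mesenchymal sum was 32.4 CPM in WT3 against 0.889 to 4.35. Reads on 4 Y-linked genes numbered 1111, 1638 and 2147 in WT1, WT2 and KO3 but 1, 0 and 1 in WT3, KO1 and KO2. In bulk RNA such as this, fewer cells of a type and less RNA per cell cannot be told apart. Since WT3 stood apart, fold changes between the genotypes are given with and without it.

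Because these genes moved together between libraries, the promoters were searched for letters bound by factors known to control respiratory genes. RefSeq windows on GRCm38.p6, running from 250 bases before to 50 bases after a transcription start, were at hand for 77 of the 93 genes. Nuclear respiratory factor 1 (NRF1) binds a palindromic site whose core was searched as GCGCATGC on both strands. It was in 12 of the 77 genes (15.6%) and in 3.05% of all 27025 genes with a window, or 6.12% of those that were also tested here. Stretches of 30 bases around it are shown for the 7 genes where the stretch lay wholly within the 250 bases before the start site, to show the letters in their setting in genes of 4 complexes and of an assembly factor. Each reads 5′ to 3′ on the strand of the gene, and the capitals mark the letters searched, 10 where matches on both strands overlap.
Ndufa6, complex I, chr15:82354356-82354385, minus strand: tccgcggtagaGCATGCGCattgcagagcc
Ndufa11, complex I, chr17:56717692-56717721, plus strand: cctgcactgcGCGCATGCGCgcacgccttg
Sdhb, complex II, chr4:140961206-140961235, plus strand: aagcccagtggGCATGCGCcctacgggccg
Cox6a1, complex IV, chr5:115349101-115349130, minus strand: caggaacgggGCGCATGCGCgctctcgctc
Atp5g2, complex V, chr15:102671070-102671099, minus strand: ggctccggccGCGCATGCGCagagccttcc
Atp5k, complex V, chr5:108434430-108434459, minus strand: tttcactgcgGCGCATGCGCctttctggct
Ndufaf4, assembly factor, chr4:24897960-24897989, plus strand: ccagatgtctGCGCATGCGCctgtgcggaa
The match began 54 bases before the start of Sdhb, 50 before that of Atp5k, 42 before that of Atp5g2, 60 before that of Ndufa11, 83 before that of Ndufa6, 113 before that of Ndufaf4 and 162 before that of Cox6a1. The other matches were in Atp5l, Ndufa8, Ndufaf5, Uqcr11 and Uqcrc1, of which none is shown.

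Other motifs were shared by more or fewer of these genes. The core of ETS family factors such as GABPA (CCGGAAG) was in 18 of 77 (23.4%, against 9.93% of all genes with a window and 19.6% of those tested). The YY1 core (AAGATGGC) was in 12 (15.6%, against 3.19% and 5.24%). The SP1 core (GGGCGG) was in 35 (45.5%, against 38.2% and 69.7%), and the estrogen-related receptor site (TCAAGGTCA) only in Atp5g3 and Sdhd (2.6%, against 0.466% and 0.326%). These are matches of letters, counted on both strands, and matches of different motifs may share bases. The 12 tested genes with the NRF1 letters and the 63 without had median fold changes between the genotypes of log2 0.11 and 0.07. Their median departures in WT3 from the other libraries were log2 -0.85 and -0.84. With and without the other motifs, these departures were -0.83 and -0.84 (ETS), -0.76 and -0.84 (YY1) and -0.82 and -0.86 (SP1). For the estrogen-related receptor site, in 2 genes, they were -1.33 and -0.81. Binding was not measured, and the part of these factors was not tested.

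Levels were compared between genes per length, as CPM per kilobase of transcript (RPKM) computed from the raw counts. The lengths were those deposited with the data, and ranks by RPKM depend on them. Complex V had the highest median level in each of the 6 libraries, between 235 and 423 RPKM, and complex I the lowest of the 5 complexes, between 76.7 and 139 RPKM. The medians of complexes II, III and IV lay between, at 199, 221 and 214 RPKM over the 6 libraries, and differed from each other by less than the spread between libraries (the SD of the library medians was 47.3 for II and 57.3 for III, n = 6). The highest gene of all was Atp5b, the catalytic beta subunit of ATP synthase, at 920 RPKM, followed by Atp5k (666), Cox4i1 (649) and Cox6b1 (648). The assembly and accessory genes were lower, with a median of 11.7 RPKM and a range of 6.82 to 34.1.

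**Figure D1:**
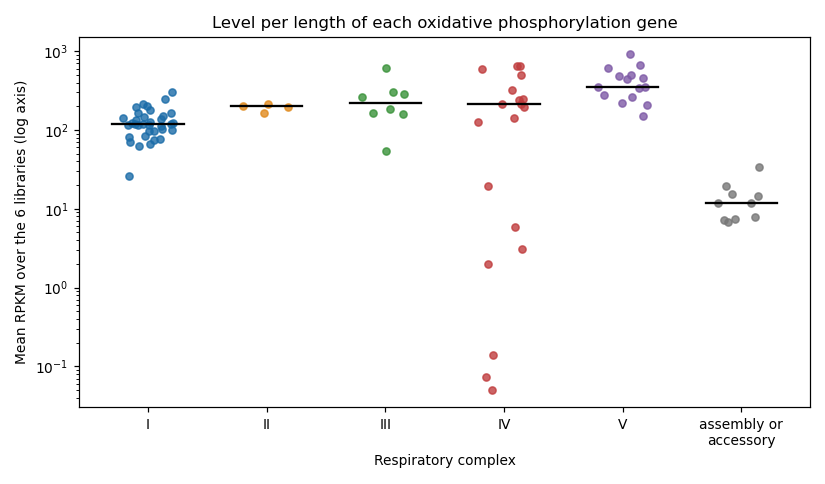
Mean RPKM over the 6 libraries on a log axis, with 1 point per gene, grouped by respiratory complex, and black lines at the median of the tested genes. Complex V sits highest with a median of 348, complex I has a median of 118, complex IV spreads down to its rarely used isoforms, and the assembly and accessory genes have a median of 11.7; Ndufs5 and Cox8c, at 0 reads, are not drawn.

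Every complex had its lowest summed level in WT3. Summed over the 83 subunits, the level was 17716, 18293 and 8978 CPM in WT1, WT2 and WT3 and 16287, 14104 and 17852 CPM in KO1, KO2 and KO3. WT3 was therefore at 49.9% of the mean of WT1 and WT2, and the 3 Ythdf2 -/- libraries lay between it and WT2. By complex, WT3 was at 56.9% of the mean of WT1 and WT2 for complex I, 49.1% for II, 47.8% for III, 53.7% for IV and 45.1% for V. The mix of the complexes moved less than their sum: complex V supplied 38.1% to 42.2% of the summed subunit CPM, complex I 23.1% to 26.8%, complex IV 16.1% to 17.4%, complex III 9.92% to 10.7% and complex II 7.57% to 8.51%. The lowest share of complex V and the highest of complexes I and IV were those of WT3.

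**Figure D2:**
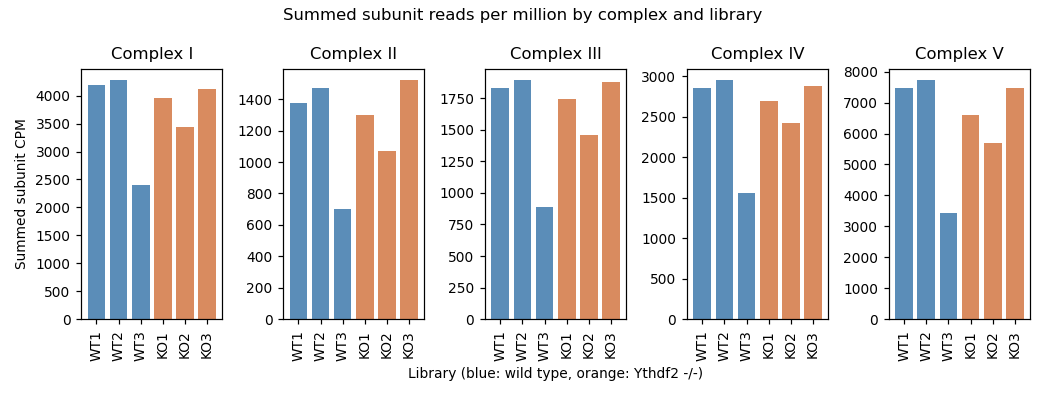
Summed subunit CPM (vertical axes, each from 0) in each library for complexes I to V, with wild type in blue and Ythdf2 -/- in orange. In all 5 panels WT3 has the lowest bar, at 45.1% to 56.9% of the mean of WT1 and WT2, and KO2 the lowest of the other 5.

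Complex I holds a core of 7 nuclear subunits that carry the NADH site and the iron-sulfur chain, surrounded by supernumerary subunits. Ndufs1, the largest core subunit, encoded at chr1:63143592-63176822 on the minus strand, had 242, 247 and 133 CPM in WT1, WT2 and WT3 and 229, 170 and 273 CPM in KO1, KO2 and KO3. WT3 was the lowest, KO2 was also low, KO3 was the highest, and the groups overlapped. Its log2 fold change was 0.11 (SE 0.295, edgeR adjusted p = 0.999), and -0.13 without WT3. Ndufv1, which holds the NADH site, had 174, 174 and 102 CPM against 172, 134 and 187, in the same order. All 7 core genes were lowest in WT3, beside 34.4% of all genes tested. None of the 35 tested genes of the complex had an edgeR p under 0.05, where 1.81% of all genes tested were higher and 1.82% lower. Fold changes over the complex ran from log2 -0.10 to 0.23, with a median of 0.09, and from -0.39 to -0.03 with a median of -0.15 without WT3.

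The gene of complex I that departed most in WT3 was Ndufb6, a subunit of the membrane arm (chr4:40270591-40279421, minus strand). It had 105, 94.9 and 36.9 CPM in the wild-type libraries and 77.8, 67.0 and 84.1 CPM in the Ythdf2 -/- libraries. WT1 and WT2 were both above all 3 Ythdf2 -/- libraries, and WT3 was below them. In contrast, Ndufa7 had 74.2, 91.2 and 75.4 CPM against 77.7, 71.9 and 74.7, so that WT3 was among the others, and Ndufv3 had 73.7 CPM in WT3 against 77.9 to 91.0 elsewhere. Per length, Ndufc2 was the highest gene of the complex at 306 ± 71.0 RPKM (SD over 6 libraries) and Ndufa11 the lowest tested at 26.2 ± 4.46. The deposited length of Ndufa11 was 2661 bases, where its GENCODE transcript closest in length had 918, so its rank is uncertain. Ndufs5 (chr4:123712710-123718186, minus strand) had 0 reads in all 6 libraries, and its transcript has a copy in the genome at 99.6% identity. Whether its reads were assigned elsewhere was not tested, so the 0 was not read as absence. Its summed expected count over the 6 libraries was 1.

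Complex II, succinate dehydrogenase, is the only complex with all its subunits in the nuclear genome and also a step of the citric acid cycle. By the deposited lengths, its 4 genes were the most alike in level of any complex, between 163 and 213 RPKM. Sdha, the flavin-bearing subunit (chr13:74322255-74350240, minus strand), had 589, 642 and 312 CPM in the wild-type libraries and 616, 477 and 744 CPM in the Ythdf2 -/- libraries. KO3 was the highest and WT3 the lowest. The log2 fold change was 0.25 (SE 0.319, edgeR adjusted p = 0.999) with WT3 and -0.01 without it. Sdhc, a membrane anchor and the gene of the complex with the largest departure in WT3 (chr1:171129157-171150640, minus strand), had 279, 307 and 139 CPM against 258, 230 and 293, and its groups overlapped. Its log2 fold change was 0.11 with and -0.17 without WT3. Sdhb, the iron-sulfur subunit with the NRF1 letters shown above, had 258, 250 and 127 CPM against 224, 189 and 246, with the same order of libraries at the bottom.

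Complex III was represented by its core proteins Uqcrc1 and Uqcrc2, the Rieske iron-sulfur protein Uqcrfs1 and 5 small subunits. Uqcrc1 (chr9:108936648-108949641, plus strand) departed most in WT3, with 364, 366 and 140 CPM in the wild-type libraries and 321, 264 and 371 CPM in the Ythdf2 -/- libraries. The level in WT3 lay far below the other 5. Its log2 fold change was 0.14 (SE 0.378, edgeR adjusted p = 0.999) with and -0.19 without WT3. Uqcrq, a small subunit, had 92.0, 76.8 and 42.3 CPM against 90.2, 78.4 and 88.0. It had the largest fold change of the complex, log2 0.28 (SE 0.283, edgeR adjusted p = 0.999), which was 0.02 without WT3. Uqcrfs1 had 225, 241 and 113 CPM against 230, 182 and 266, and Uqcrc2 336, 367 and 183 CPM against 324, 272 and 359. In both, WT3 and then KO2 were the lowest, and WT1, WT2, KO1 and KO3 lay together. All 8 genes had a fold change of 0.00 or above with all libraries, and 7 of 8 were below 0 without WT3. Uqcrh was the highest gene of the complex at 603 ± 116 RPKM and Uqcrq the lowest at 54.1 ± 12.9 (SD over 6 libraries).

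Complex IV, cytochrome c oxidase, is the complex with the most alternative isoforms, several of them known from heart, skeletal muscle, lung or testis. Cox4i1, its widespread subunit 4 (chr8:120668225-120674209, plus strand), had 496, 525 and 319 CPM in the wild-type libraries and 551, 440 and 518 CPM in the Ythdf2 -/- libraries, and a log2 fold change of 0.17 (SE 0.229, edgeR adjusted p = 0.999). WT3 was again the lowest, and without it the fold change was -0.02. Cox5a, a subunit on the matrix side, departed further in WT3, with 176, 169 and 63.2 CPM against 163, 126 and 186 and a departure of log2 -1.41. Ndufa4 had 283, 296 and 121 CPM against 251, 234 and 292. Cox7a2l, the supercomplex factor, hardly shared the pattern, with 217, 223 and 183 CPM against 226, 204 and 206, although a copy of its transcript at 98% identity makes its counts uncertain. The lung isoform of subunit 4, Cox4i2, had 4 reads in all libraries together. The core of the isoform picture was the same in every library: Cox6a1, Cox6b1, Cox7a2, Cox8a and Ndufa4 each supplied 96.0% or more of the RPKM of their isoform group.

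Of the tissue-restricted forms, 4 passed the filter on low counts. Cox6b2, known from testis (chr7:4751792-4753094, minus strand), had 15.1, 16.8 and 1.65 CPM in the wild-type libraries and 6.82, 13.3 and 6.60 CPM in the Ythdf2 -/- libraries, and supplied 4.02%, 3.96% and 0.746% of the Cox6b RPKM in WT1, WT2 and WT3 and 1.98%, 3.90% and 1.78% in KO1, KO2 and KO3. WT3 was lowest both in level and in share. Its log2 fold change was -0.33 (SE 0.778, edgeR adjusted p = 0.999) with and -0.84 without WT3, and all 3 Ythdf2 -/- libraries lay below WT1 and WT2 but above WT3. Cox6a2, the heart and muscle form of subunit 6a (chr7:128205435-128206366, minus strand), had 0.428, 1.60 and 0 CPM against 1.53, 1.33 and 3.06, and a log2 fold change of 1.49 (SE 0.989, edgeR adjusted p = 0.999), which was 0.93 without WT3 and 3.12 without WT2. These are few reads, from 0 to 38 a library, 10.6% of its exon bases lie opposite exons of Itgad, and the groups overlapped. With 0 reads in WT3, its departure there depends on the prior count, and among the tested genes of the complex with reads in WT3, Cox6b2 departed most, at log2 -2.89. Cox8b supplied 1.23% to 2.46% of its group and Cox7a1 0.825% to 2.48%, in both cases without a gap between the genotypes. Of 8 muscle markers, 5 were under 1 CPM in every library and Ckm was at 0 reads. The summed level of the 8 was 4.99 to 13.1 CPM in 5 libraries and 36.9 in KO2, where Actc1 alone had 33.4 CPM.

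**Figure D3:**
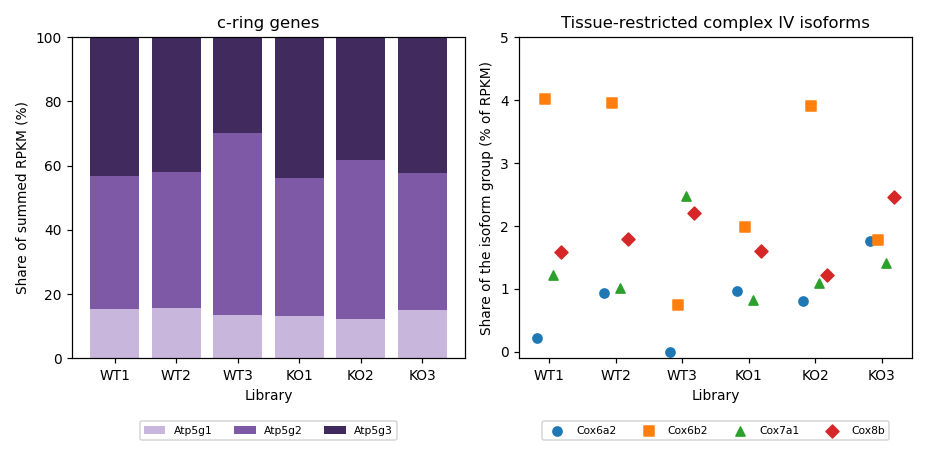
Shares of RPKM in each library, on the left of the 3 c-ring genes of complex V as stacked bars that sum to 100% and on the right of 4 tissue-restricted complex IV genes within their isoform groups. WT3 has the largest Atp5g2 share, 56.6% against 41.4% to 49.7% elsewhere, and the smallest Cox6b2 share, 0.746% against 1.78% to 4.02%.

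Complex V consists of a catalytic head and stalk that make ATP and a membrane part with the rotating c-ring. Atp5b (chr10:128083307-128090388, plus strand) had 2104, 2187 and 737 CPM in the wild-type libraries and 1767, 1460 and 2122 CPM in the Ythdf2 -/- libraries. WT3 was lowest, and the Ythdf2 -/- libraries lay below WT2 but overlapped WT1. The log2 fold change was 0.09 (SE 0.430, edgeR adjusted p = 0.999) with and -0.27 without WT3. Atp5a1, the alpha subunit of the head, had 1682, 1735 and 807 CPM against 1547, 1335 and 1742. Atp5o, a stalk subunit, had 444, 484 and 188 CPM against 387, 349 and 474. In both, as in Atp5b, WT3 and then KO2 were lowest, and the groups overlapped. The 6 genes listed for the head and stalk were Atp5a1, Atp5b, Atp5c1, Atp5d, Atp5e and Atp5o. They summed to 5036, 5241 and 2185 CPM in the wild-type libraries and 4476, 3800 and 5153 CPM in the Ythdf2 -/- libraries. Atp5f1, Atp5h and Atp5j, further stalk subunits, were not in this list and had log2 fold changes of 0.02, -0.09 and 0.02. All 6 listed genes had a fold change above 0 with all libraries, at a median of log2 0.10. None of the 6 had an edgeR p under 0.05, where 1.81% of all genes tested were higher and 1.82% lower. Without WT3 all 6 lay below 0, at a median of -0.16.

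The c-ring is unusual in that Atp5g1, Atp5g2 and Atp5g3 encode the same mature protein with different import sequences. Atp5g3 (chr2:73908447-73912464, minus strand) had 378, 379 and 111 CPM in the wild-type libraries and 344, 275 and 361 CPM in the Ythdf2 -/- libraries. At log2 -1.70 against the median of the other 5, it departed more in WT3 than any other gene of complex V. Its fold change between the genotypes was log2 0.18 (SE 0.455, edgeR adjusted p = 0.999) with and -0.21 without WT3. Atp5g2 had 332, 355 and 194 CPM against 311, 329 and 337, a departure of -0.77. The mix of the 3 genes differed accordingly: Atp5g2 supplied 41.4%, 42.6% and 56.6% of the c-ring RPKM in WT1, WT2 and WT3 and 43.1%, 49.7% and 42.8% in KO1, KO2 and KO3, and Atp5g3 supplied 29.8% in WT3 and 38.2% to 43.9% in the others. Between the genotypes the shares overlapped, with 46.9% ± 8.48 and 45.2% ± 3.89 for Atp5g2 (SD, n = 3 each), although all 3 Ythdf2 -/- shares of Atp5g2 lay above those of WT1 and WT2.

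Among the assembly and accessory genes, Ndufaf3 (chr9:108565587-108567436, minus strand) was the only one of the 88 tested genes whose libraries did not overlap between the genotypes. It had 12.3, 11.8 and 7.23 CPM in the wild-type libraries and 13, 15.3 and 15 CPM in the Ythdf2 -/- libraries. The gap between WT1 and KO1 was small, and WT3 was again the lowest. The log2 fold change was 0.47 (SE 0.253, edgeR adjusted p = 0.999), and 0.26 without WT3. Among all 13112 genes tested, 5.24% had all 3 Ythdf2 -/- libraries above all 3 wild-type libraries and 4.92% had them all below, where these genes gave 1 and 0 of 88. Ndufaf1 had a log2 fold change of 0.25 (SE 0.241, edgeR adjusted p = 0.999) with and 0.04 without WT3. Atp5s had one of -0.28 (SE 0.221, edgeR adjusted p = 0.999) with and -0.34 without WT3, which was -0.12 without KO2, from 11.9, 11.3 and 10.2 CPM against 9.98, 7.18 and 10.3. Ndufaf6 (chr4:11048991-11076237, minus strand) departed most in WT3, with 9.76, 10.1 and 3.20 CPM against 9.21, 6.29 and 9.82. Its fold change was log2 0.13 with and -0.23 without WT3. Ndufaf4, with the NRF1 letters shown above, had 65.2, 61.2 and 22.1 CPM against 64.4, 30.8 and 69.4, so that both WT3 and KO2 were far below the other 4.

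Between the genotypes, no gene of the set passed the test. Of the 93 genes, 88 passed the filter on low counts; Ndufs5, Cox4i2, Cox7b2, Cox8c and Ndufa4l2 did not. At an adjusted p under 0.05, edgeR called 0 of the 88 and 0 of all 13112 genes tested (0%), and the targeted gene Ythdf2 itself stood at log2 -2.66 (SE 0.183) with an adjusted p of 0.0547. At an unadjusted p under 0.05, 0 of the 88 were higher in the Ythdf2 -/- libraries and 0 lower, where 1.81% and 1.82% of all genes tested were. DESeq2 called 0 of the 88 at an adjusted p under 0.05, beside 0.236% of all genes tested, and at an unadjusted p under 0.05 gave 0 higher, beside 1.91%, and 0 lower, beside 2.36%. Limma-voom called 0 of the 88 and 0 of all genes tested, and at an unadjusted p under 0.05 gave 0 higher, beside 1.86%, and 0 lower, beside 1.61%. The lowest adjusted p among the 88 was 0.999. The median log2 fold change of the 78 tested subunits was 0.09 beside -0.01 over all genes tested, and 64 of them lay above 0 and 14 below. By complex the medians were 0.09 for I, 0.08 for II, 0.18 for III, 0.12 for IV and 0.07 for V. Summed over the subunits, the level was 14996 ± 5220 CPM in wild type and 16081 ± 1882 CPM in Ythdf2 -/- (SD, n = 3 each), a difference well within the spread.

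**Figure D4:**
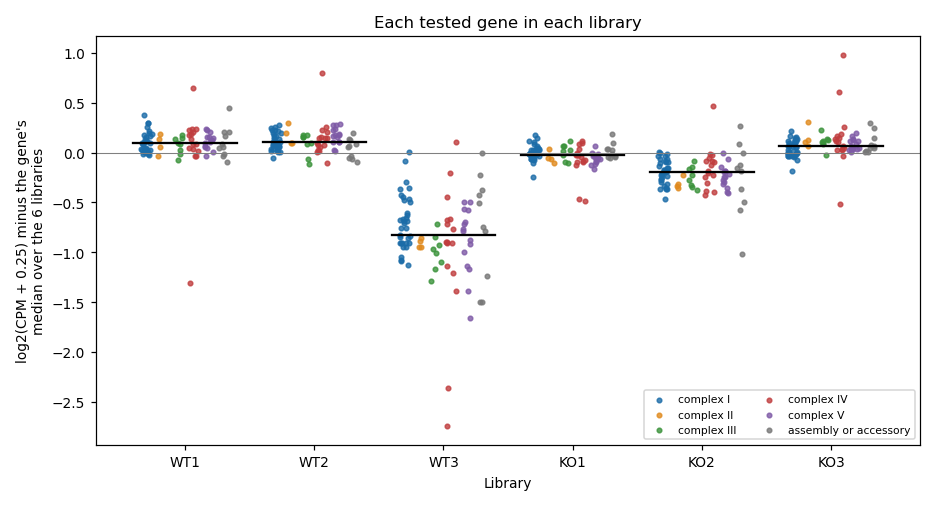
Each of the 88 tested genes in each library, as log2(CPM + 0.25) minus the median of that gene over the 6 libraries, with colours for the complexes and black lines at the library medians. The WT3 points lie below those of the other libraries almost throughout, and most KO2 points lie below those of the remaining 4.

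The largest difference in these genes was between libraries and not between genotypes. WT3 had the lowest level of the 6 libraries in 85 of the 88 tested genes, beside 34.4% of all genes tested. Against the median of the other 5 libraries, the 78 tested subunits had a median departure in WT3 of log2 -0.88, and all genes tested had one of 0.01. It reached -1 or lower in 25 of the 88 genes, beside 11.4% of all genes tested. By complex the median departure was -0.75 for I, -0.97 for II, -1.04 for III, -0.91 for IV and -0.84 for V. The exceptions, where WT3 was not the lowest, were Ndufa7, Cox7a1 and Atp5s. Once WT3 was set aside, KO2 had the lowest level of the remaining 5 libraries in 73 of the 88 genes, beside 28.3% of all genes tested. Markers moved in KO2 as well. Among these 5 libraries, 3 of 6 astrocyte markers were lowest in KO2 (Slc1a2 204 CPM against 402 to 750, S100b and Gjb6) and Aldh1l1 was highest, while 5 of 10 stem and progenitor markers were highest there (Vim 3036 CPM against 1518 to 2525) and 2 lowest. Of the 9 neuron markers 4 were highest in KO2 and 2 lowest, and of 7 oligodendrocyte lineage markers 2 were highest and 1 lowest. These markers, the markers that were high or low in WT3, listed above, and the Y-linked reads missing from WT3 and KO2 (and from KO1) moved with these differences; their part in them was not tested.

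The direction of the genotype difference turned when WT3 was left out. The median log2 fold change of the tested subunits was then -0.16, beside 0.01 over all genes tested, with 2 subunits above 0 and 76 below. The medians were -0.15, -0.19, -0.10, -0.15 and -0.21 for complexes I to V. Cell type markers differed between the same libraries. At an unadjusted p under 0.05 without WT3, of the stem and progenitor markers Prom1 was lower (log2 -1.60) and Sox2 and Msi1 higher (0.30 and 0.61), of the neuron markers Stmn2 was lower (-2.33), of the astrocyte markers Gfap was lower (-2.85, from 437 and 625 CPM in WT1 and WT2 to 127, 87.7 and 5.55 CPM), and of the oligodendrocyte lineage markers Cspg4 was higher (0.41). The part of these markers in the shift was not tested. The summed subunit level of the Ythdf2 -/- libraries was 89.3% of the mean of WT1 and WT2, where it was 107% of the mean of all 3 wild-type libraries. In 30 of the 88 genes all 3 Ythdf2 -/- libraries were below WT1 and WT2, beside 20.0% of all genes tested, and in 1 (Ndufaf3) they were all above, beside 18.9%. At an unadjusted p under 0.05, edgeR gave 5 of the 88 lower, beside 8.58% of all 13283 genes then tested, and 0 higher, beside 8.03%; none of the 88 had an adjusted p under 0.05, beside 0.0151%. These 5 were Ndufb6 (log2 -0.39, SE 0.124, edgeR adjusted p = 0.234), Atp5h (-0.30), Ndufs8 (-0.26), Cox6b2 (-0.84) and Atp5j2 (-0.23), named after their values were seen, and Atp5h has a copy in the genome at 98.7% identity. The share of 5 in 88 was below the background, so it is no result about these genes. The 3 Ythdf2 -/- libraries were not alike in this, since KO3 had 99.2% of the mean of WT1 and WT2 summed over the subunits and KO2 was the lowest.

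**Figure D5:**
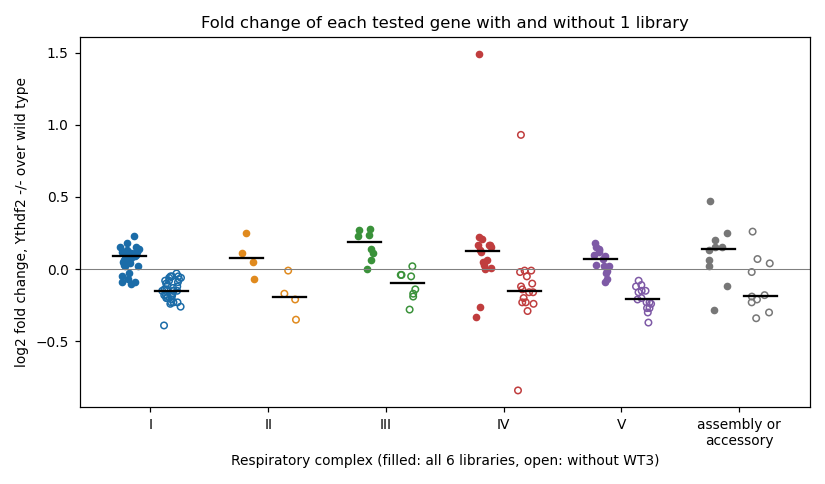
Log2 fold change of each tested gene, Ythdf2 -/- over wild type, by complex, with all 6 libraries (filled points) and without WT3 (open points), and black lines at the medians. The medians of complexes I to V move from between 0.07 and 0.18 to between -0.21 and -0.10 when this library is left out.

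The libraries with and without Y-linked reads were also compared apart. Among those with such reads, KO3 had 99.2% of the summed subunit level of WT1 and WT2, with 33 of the 88 genes higher and 55 lower. The median difference was log2 -0.05, beside -0.01 over all genes tested. Among those without, KO1 and KO2 had 169% of the level of WT3, with 85 genes higher and 3 lower. The median difference was log2 0.70, beside 0.00 over all genes tested. WT3 is the only wild-type library without such reads, so this comparison restates its low level. Each comparison rests on 1 library on a side and has no test. With a term for the presence of Y-linked reads in the fit, edgeR gave 4 of the 88 higher at an unadjusted p under 0.05 (Cox6a2, Ndufaf3, Sdha and Uqcrfs1), beside 5.23% of all genes tested, and 0 at an adjusted p under 0.05, beside 0.0991%. With limma-voom and a weight for the quality of each library, 11 of the 88 were lower at an unadjusted p under 0.05, beside 14.4% of all genes tested, and 0 at an adjusted p under 0.05, beside 4.82%. Both were chosen after the data were seen, and they point in opposite directions.

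Genes that work beside the respiratory chain were also low in WT3. All 18 citric acid cycle genes outside the set were lowest in WT3, beside 34.4% of all genes tested, with a median departure of log2 -0.94. All 18 had a fold change above 0 between the genotypes, with a median of 0.17. Of the 18, 0 had an edgeR p under 0.05, where 1.81% of all genes tested were higher and 1.82% lower. Without WT3 the median of the 18 was -0.09, with 2 above 0 and 16 below. The sum of citric acid cycle genes, complex II included, was 7336, 7660 and 3669 CPM in the wild-type libraries and 7329, 5721 and 8357 CPM in the Ythdf2 -/- libraries. Carriers and pores that move phosphate and ATP, such as Slc25a3 and Vdac1, had a median departure of -0.92 in WT3. Of these, 6 of 6 tested were lowest there, beside the same 34.4%. Cycs, the cytochrome c that links complexes III and IV, departed further, with 493, 455 and 94.7 CPM in the wild-type libraries and 334, 236 and 417 CPM in the Ythdf2 -/- libraries. Its log2 fold change was -0.08 (SE 0.590, edgeR adjusted p = 0.999) with and -0.53 without WT3. All 3 Ythdf2 -/- libraries lay below WT1 and WT2 but above WT3.

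The genes that build and control the chain came next. Of the 37 tested assembly factors outside the set, 25 were lowest in WT3, beside 34.4% of all genes tested, and the median departure was log2 -0.50. Of 23 regulators of mitochondrial biogenesis, 11 were lowest in WT3, beside the same 34.4%, with a median departure of -0.14. With all libraries, 12 had a fold change above 0 and 11 below. Of the 23, 0 had an edgeR p under 0.05, where 1.81% of all genes tested were higher and 1.82% lower. Without WT3, 10 of the regulators were above 0 and 13 below. Of these, 1 was lower at an unadjusted p under 0.05, beside 8.58% of all genes then tested. It was Polg, the mitochondrial DNA polymerase (log2 -0.34). Among them Nrf1, the gene of the factor whose letters were searched, departed by -0.14 and Gabpa by 0.03. Ppargc1a, a coactivator that raises mitochondrial gene expression, had 91.5, 103 and 37.7 CPM in the wild-type libraries and 107, 56.8 and 179 CPM in the Ythdf2 -/- libraries, with WT3 lowest and KO3 highest. Esrra, a receptor that works with it, had 38.2, 38.3 and 16.8 CPM against 31.0, 26.9 and 43.4. Both had groups that overlapped with and without WT3. The related receptors Esrrg and Esrrb were named after their values were seen. Esrrg was instead highest in WT3, with 1.37, 0.534 and 5.03 CPM against 0.171, 0.963 and 0.402. Esrrb was lowest there, with 5.65, 6.33 and 0.549 CPM against 10.1, 3.63 and 11.7.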

How the data were processed

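The authors isolated poly(A) mRNA, fragmented it by sonication and made stranded libraries. Their methods name alignment to mm10 with TopHat, and the submitters' processing notes name Bowtie2 2.2.9, RSEM 1.2.15 and featureCounts. The strand setting and the handling of reads with several positions are not given in the sources used here. The authors deposited raw counts, whole reads per gene without normalization, for each of the 6 input libraries. They also deposited estimated (expected) counts, TPM and FPKM with a gene length in bases. The deposited expected counts summed to 234725 to 272646 per library, 1.97% to 2.40% of the raw counts, and to a median of 9 per gene of the set over all libraries. The TPM and FPKM values were therefore used only as an alternative scale, and the lengths served to compute RPKM from the raw counts. Libraries were grouped by genotype from the sample labels.

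Genes were tested in R 4.3.3 with edgeR 4.0.16 (TMM, filterByExpr, glmQLFit with the robust option, glmQLFTest), genotype as the only term, and p-values adjusted by Benjamini and Hochberg over 13112 genes. CPM values are TMM-scaled and the SE is the log2 fold change divided by the root of F. The departure of WT3 used log2 CPM with a prior count of 2. Alternatives used limma-voom from limma 3.58.1 and DESeq2 1.42.0, RLE scaling or none, other filters, the replicate number as a block and leaving out each library. The code of the fits was run on simulated counts, as a check of the code and not of these results. With 3 libraries against 3, an exact permutation test cannot go below 0.1. Gene positions are those of RefSeq on GRCm38.p6 (mm10 is the same assembly), with 3 genes matched through synonyms. Copies were found with blastn 2.17.0 over at least 80% of a GENCODE M21 transcript: 8 genes had 1 at 98% identity or more and 12 at 95%, among them Atp5l, Cox7a2l, Ndufa12, Ndufs3, Uqcr11 and Uqcrb. How reads of such genes were split is uncertain. Reads from Cox7a2, Ndufa13, Ndufb11, Uqcr10 and Uqcrc2, which share over 20% of their exon bases with a gene on the other strand, can be told apart only if counting used the strand.

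The members and gene lists were chosen with earlier results of these data known. Named genes were core subunits and isoforms, the 5 with the smallest unadjusted p, the highest and lowest RPKM of each complex, those without overlap, Ythdf2, and in each complex the gene departing most in WT3. Some genes of the set are not reported here by name.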

Additional observations from a re-analysis of the deposited data

How the results depend on the processing

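No alternative gave a member with an adjusted p under 0.05. Over all genes tested, that threshold was passed by 31 with DESeq2, 13 with the Y-linked term, 632 with quality weights, 2 without WT3 and 0 or 1 in the other fits. Over all subunits, the direction turned without WT3 and with quality weights. Leaving out each library in turn, the median log2 fold change ranged from -0.16 to 0.23 over all subunits, from -0.15 to 0.22 for complex I, -0.19 to 0.25 for II, -0.10 to 0.34 for III, -0.15 to 0.26 for IV and -0.21 to 0.20 for V, and the log2 ratio of summed subunit CPM (0.10 with all libraries) from -0.16 to 0.27. The negative ends come from leaving out WT3, and without KO3 the medians of complexes II and V were -0.01 and -0.02. Members higher at an unadjusted p under 0.05 ranged from 0 to 1 (1 without WT2), lower from 0 to 5, those above wild type in all libraries from 1 to 3 (3 without WT1 or WT2) and those below from 0 to 30 (30 without WT3, 2 without KO3). Weighting the libraries by quality gave medians of -0.12 over all subunits and -0.10, -0.16, -0.06, -0.13 and -0.19 for complexes I to V, with 11 members lower at an unadjusted p under 0.05, and the Y-linked term gave 4 higher and a median of 0.33. The causes were not tested.

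Leaving out each library, log2 fold changes ranged from -0.13 to 0.28 for Ndufs1, -0.39 to 0.21 for Ndufb6, -0.01 to 0.44 for Sdha, -0.17 to 0.31 for Sdhc, -0.19 to 0.34 for Uqcrc1, -0.02 to 0.30 for Cox4i1, -0.84 to 0.08 for Cox6b2, -0.27 to 0.33 for Atp5b, -0.21 to 0.42 for Atp5g3 and -0.23 to 0.38 for Ndufaf6. With quality weights they were -0.08 for Ndufs1, -0.16 for Sdhc, -0.15 for Uqcrc1, -0.24 for Atp5b, -0.13 for Atp5g3 and -0.14 for Ndufaf6. Ndufb6 was 0.08 with limma-voom and 0.35 with the Y-linked term, and Cox6b2 was 0.12 and 0.48. Over all alternatives Ndufaf3 stayed above 0, from 0.20 to 0.64, as did Ndufaf1 (0.04 to 0.42) and Uqcrq (0.02 to 0.52). Cox6a2 did so in the alternatives that tested it (0.91 to 3.12), and Atp5s stayed below, from -0.37 to -0.12. These genes were named for their small unadjusted p in the main edgeR fit, and the alternatives share its libraries. Their kept direction is therefore no support for a difference. The call of Ythdf2, at an adjusted p of 0.0547, passed the threshold in 7 alternatives, among them DESeq2 and the fit without WT3 (0.0203).

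Deviations of same-numbered libraries from their group means had correlations of -0.248, -0.244 and -0.394. Within a group these deviations are tied to each other, and WT3 stood apart. The correlations therefore cannot decide whether the replicate number marks a pairing. The main fit left the replicate number out. With the replicate block the subunit median was 0.14 and 0 members were called, and Ndufb6 and Cox6b2 were both 0.07. Of 404 alternative values, 346 kept their direction and side of the threshold or their count. The median subunit level of 162 RPKM was 9.45 in the deposited FPKM and 23.8 in the deposited TPM, which rest on few reads.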
